A study of Mus musculus with 24 samples.

Results

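The fatty acid desaturases and elongases examined here were 10 genes taken by symbol, Scd1, Scd2, Scd3, Scd4, Fads1, Fads2, Fads3, Elovl1, Elovl2 and Elovl5. All 10 were found among the 55797 gene names of the count files. RNA was sequenced from liver and brain of male C57/BL6 mice, with a treatment entry of 16 weeks. The db/db mice of the series, described by the submitters as a leptin receptor knockout model, were set against db/+ mice, heterozygotes for the same mutation. Within each genotype the mice drank brazzein (3M-Brazzein, a sweet-tasting protein), sucrose or water. The 24 libraries thus formed 12 groups of 2, so each tissue had 6 db/db and 6 db/+ libraries. Genotype was read from the sample titles, since a separate genotype entry differed from the title for 12 of the 24 libraries. The labels give neither the age of the mice nor the brain region, and do not say whether replicates were separate animals, so p-values measure the spread between these libraries, which may be technical.

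Desaturases put double bonds into fatty acids and elongases lengthen their carbon chains. The Scd enzymes act on saturated fatty acids, mainly stearate and palmitate, and yield monounsaturated ones such as oleate; in mice Scd1 is known as the main liver form and Scd2 as the main brain form. Fads2 and Fads1 act in turn on the dietary polyunsaturated fatty acids, and Elovl5 and Elovl2 lengthen the products between these steps on the way to arachidonate and docosahexaenoate. Elovl1 lengthens saturated and monounsaturated chains to the very long chains of sphingolipids, and Fads3 acts on sphingoid bases. In liver, Scd1 and other genes of this group are known targets of insulin and of the lipogenic factors encoded by Srebf1 and Mlxipl.

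Estimated counts summed to 60384569 to 79385804 per liver library and 58287665 to 77772849 per brain library. The labelled tissues carried their own markers. The 10 hepatocyte markers summed to 83426 to 110830 CPM (counts scaled to library size) in db/db livers and 85413 to 114532 CPM in db/+ livers, and the 7 neuron markers to 6346 to 6665 CPM in db/db brains and 6472 to 6733 CPM in db/+ brains. Lepr, which encodes the leptin receptor, stood at 0.690 to 2.50 CPM in db/db livers and 1.90 to 18.9 CPM in db/+ livers (log2 difference -1.93, SE 0.32, edgeR adjusted p = 0.00788). The counts pool all receptor forms and so do not check the mutation. Because the tissues were sequenced in bulk, fewer cells of a type and less RNA per cell cannot be told apart in any result below.

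Liver and brain used the members of each family in different proportions. FPKM, a level scaled by gene length and library total, allows members to be set against each other. Scd1 made up 99.8% ± 0.264 of the summed Scd FPKM in liver and 12.8% ± 2.03 in brain, while Scd2 made up 0.0757% ± 0.0872 in liver and 86.4% ± 2.06 in brain (SD, n = 12 each). Among the Fads genes, Fads2 held 60.6% ± 6.74 in liver and 39.1% ± 0.849 in brain, Fads1 39.4% ± 6.73 in liver and 54.4% ± 0.879 in brain, and Fads3 0.0857% ± 0.0661 in liver and 6.47% ± 0.920 in brain. Elovl5 was on average the highest of the 3 Elovl genes by FPKM in both tissues, at 60.2% ± 11.99 in liver and 59.7% ± 1.98 in brain. The liver mean pools db/db and db/+ livers, whose Elovl5 shares lay apart on either side of it, as given below. The other elongases traded places, with Elovl2 at 34.8% ± 12.6 in liver and 15.3% ± 1.41 in brain, and Elovl1 at 5.02% ± 1.04 in liver and 25.1% ± 1.24 in brain. These shares are a description of 1 FPKM table and carry no test.

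**Figure D1:**
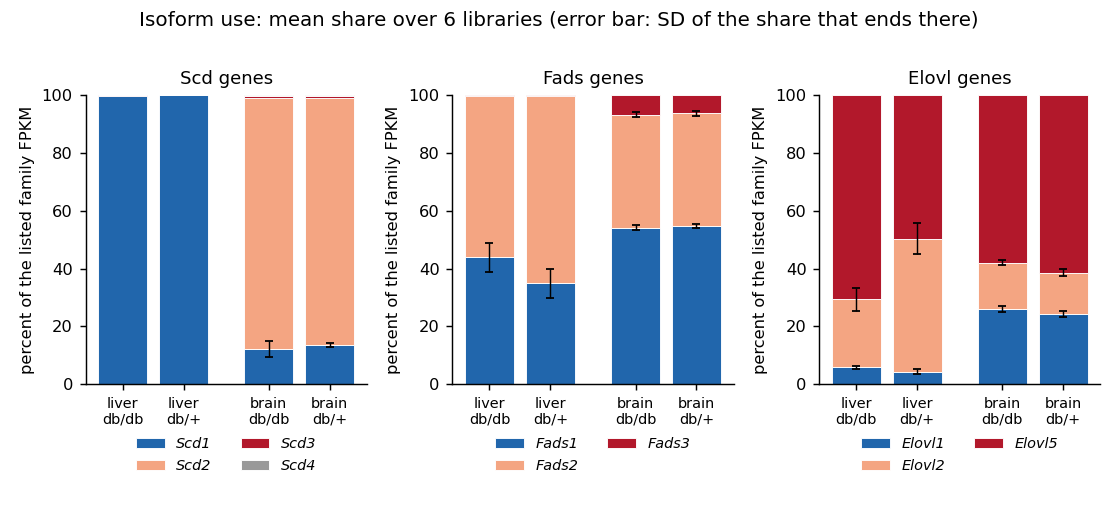
Mean percent of the summed FPKM of each gene family (y axis, 0 to 100) held by each member, in db/db and db/+ liver and in db/db and db/+ brain, each over 6 libraries; error bars are the SD of the share that ends there. Scd1 filled the Scd bar in liver and Scd2 most of it in brain, and Elovl2 took 23.6% in db/db liver and 45.98% in db/+ liver.

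By FPKM level, Scd1 was the highest member in liver, with a lowest library of 220 FPKM, a median of 590 and a highest of 1996, and of the others Fads2 alone reached into that range, with 226 FPKM in 1 library. Elovl5 followed with a median of 163 FPKM, then Fads2 with 99.6, Elovl2 with 78.5 and Fads1 with 68.0, whose ranges over libraries overlapped one another. Elovl1 stood below them at 7.84 to 17.1 FPKM. Scd2, Scd3, Scd4 and Fads3 all had medians under 1 FPKM in liver, and Scd2 was listed at 0 in 3 liver libraries, Scd3 in 9 and Scd4 in 6. In brain, Scd2 was the highest member at 161 to 205 FPKM, with no overlap with Fads1 at 44.9 to 54.5 FPKM. Fads1 in turn did not overlap with Fads2 at 32.6 to 39.3 FPKM. Fads2 came above Scd1 in median, at 36.9 against 28.6 FPKM, but their ranges met, Scd1 reaching 33.3 FPKM. Elovl5 at 15.2 to 19.6, Elovl1 at 6.44 to 8.70, Fads3 at 4.69 to 7.53, Elovl2 at 3.87 to 5.01 and Scd3 at 1.18 to 1.99 FPKM followed, of which Elovl1 and Fads3, and Fads3 and Elovl2, overlapped, as did Elovl5 and the lowest Scd1 library at 13.6 FPKM. Scd4 was lowest in brain, at 0.0655 to 0.481 FPKM.

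**Figure D2:**
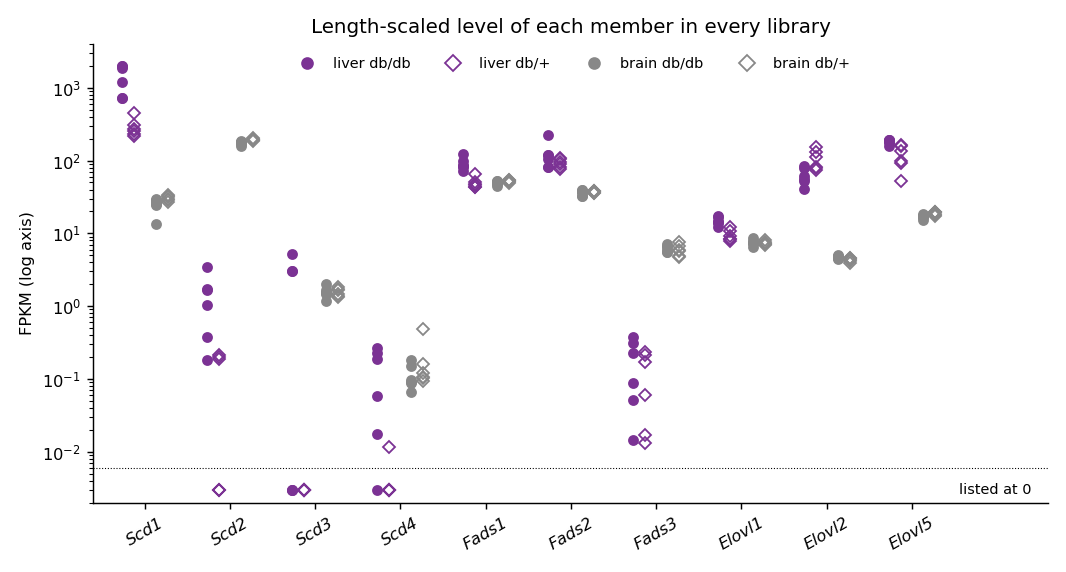
FPKM on a log axis (y) of each of the 10 members (x) in every library, with liver in purple and brain in grey, db/db as filled circles left of db/+ as open diamonds; points under the dotted line are listed at 0. Scd1 in liver and Scd2 in brain stand highest, and Scd2, Scd3, Scd4 and Fads3 are near or at 0 in liver.

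Against brain, 6 members were higher in liver and 4 lower (edgeR quasi-likelihood test, adjusted p under 0.05), where 84.5% of all genes tested were called, so a call by itself says little here. Within db/db mice 8 members were called (79.2% of all genes) and within db/+ mice 10 (79.6%). The higher members were Scd1 (log2 difference 5.47, SE 0.24, adjusted p = 1.74e-11), Elovl2 (5.05, SE 0.08), Elovl5 (3.94, SE 0.10), Fads2 (2.43, SE 0.10), Elovl1 (1.62, SE 0.06) and Fads1 (1.34, SE 0.05). Lower in liver were Fads3 (log2 difference -4.82, SE 0.38) and Scd2, Scd3 and Scd4, which were listed at 0 in some or all libraries of a liver group, so that no fold is given for them. The median of all 25725 genes tested was -0.61 on this log2 scale, and -1.57 where only library totals were used for scaling. With library totals alone Fads1 differed by 0.36 between liver and brain, and in db/+ mice its difference was -0.13 (adjusted p = 0.174), against 0.92 with the scaling used here (edgeR adjusted p = 2.98e-08). The direction for Fads1 between db/+ liver and db/+ brain therefore depends on the scaling, while the other 5 members named as higher stayed higher over groups under it.

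The Scd genes lie side by side on chromosome 19, in the order Scd3, Scd2, Scd4 and Scd1, and their coding sequences are close copies. Taking the longest open reading frame of 1 transcript per gene, Scd1 shared 90.4% of aligned bases with Scd2, 91.5% with Scd3 and 86.1% with Scd4. The Fads genes, also neighbours on chromosome 19, shared 66.5% to 71.1%, and the 3 Elovl genes 59.97% to 66.9%. Stretches of 100 bases found in another Scd transcript made up 2.64% of those of Scd1 and 2.54% of those of Scd3, against 0 for each Fads and Elovl gene. Reads from such stretches could be counted to either copy, which bears on the low Scd2, Scd3 and Scd4 values of liver, where Scd1 is abundant. To show what can and cannot tell the genes apart, 60 coding bases that are identical in all 4 Scd genes (586 to 645 of the Scd1 coding sequence) are followed by the 60 aligned bases in which they differ most (295 to 354 in Scd1), with the positions that differ between any of the genes in capitals; in these Scd2 differs from Scd1 at 10 bases, Scd3 at 18 and Scd4 at 17.
All 4 Scd genes: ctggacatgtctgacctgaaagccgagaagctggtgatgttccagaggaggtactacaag
Scd1: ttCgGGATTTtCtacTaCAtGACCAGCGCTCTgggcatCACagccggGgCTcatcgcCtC
Scd2: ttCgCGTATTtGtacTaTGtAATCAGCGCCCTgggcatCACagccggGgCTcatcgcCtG
Scd3: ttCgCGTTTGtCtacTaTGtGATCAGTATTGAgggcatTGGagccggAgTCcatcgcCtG
Scd4: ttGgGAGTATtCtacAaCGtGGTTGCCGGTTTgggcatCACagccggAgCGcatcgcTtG

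In liver, db/db mice had more RNA of the enzyme that makes monounsaturated fatty acids and less of the elongase of the longest polyunsaturated ones. Of the 10 members 4 rose, Scd1, Scd2, Fads1 and Elovl1, and 1 fell, Elovl2, in db/db livers relative to db/+ livers averaged over drinks (edgeR adjusted p under 0.05). Among all 19352 genes tested, 15.2% were called, 7.91% as higher and 7.27% as lower. The median log2 difference of the members was 0.96, beside -0.03 for all genes, and 0.54 over the 6 members left without Scd2, Scd3, Scd4 and Fads3, whose liver counts were low or listed at 0. Groups did not overlap for 4 members, Scd1, Fads1, Elovl1 and Elovl2, against 8.43% of all genes.

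Scd1 was at 12933 and 7725 CPM on brazzein, 11891 and 4186 CPM on sucrose and 13035 and 4891 CPM on water in db/db livers. In db/+ livers Scd1 was at 1649 and 1774 CPM on brazzein, 1867 and 2155 CPM on sucrose and 3281 and 1780 CPM on water. Every db/db library was above every db/+ library, and the highest library was 3.11 times the lowest in db/db livers and 1.99 times in db/+ livers. The mean was 9110 ± 4043 CPM in db/db and 2084 ± 610 CPM in db/+ livers (SD, n = 6 each), a log2 difference of 2.14 (SE 0.36, edgeR adjusted p = 0.00812). With the counts of Scd1 to Scd4 summed into 1 gene, which no exchange of reads among them can change, the difference was again 2.14 (edgeR adjusted p = 0.00805). Scd1 made up at least 99.4% of that sum in every liver, so the result could hardly differ.

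The other Scd genes contributed little to that sum in liver. Scd2 was at 2.88 and 1.35 CPM on brazzein, 23.9 and 11.1 CPM on sucrose and 7.72 and 12.6 CPM on water in db/db livers. In db/+ livers Scd2 was listed at 0 in both brazzein libraries and in replicate 2 on water, and was at 1.54 and 1.69 CPM on sucrose and 1.55 CPM in the remaining water library. The call for Scd2 (edgeR adjusted p = 0.0233) was lost, with adjusted p between 0.0531 and 0.0748, when any of 6 libraries was left out, namely db/+ brazzein replicate 1, either db/+ sucrose, either db/db sucrose or db/db water replicate 2. Scd3 was listed at 0 in all 6 db/+ livers and in 3 db/db livers, while the sucrose livers of db/db mice held 22.9 and 12.4 CPM of it and replicate 2 on water 14.9 CPM. Scd4 stayed at or below 1.22 CPM in db/db livers and 0.0652 CPM in db/+ livers. In the 3 db/db livers that held Scd3, Scd2 was at 0.1998% to 0.2645% of the summed Scd CPM and Scd3 with Scd4 at 0.192% to 0.328%. Whether these counts come from reads of Scd1 was not tested.

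The Fads genes moved unequally. Fads1, which makes the double bond that completes arachidonate, was at 407 and 379 CPM on brazzein, 531 and 400 CPM on sucrose and 411 and 340 CPM on water in db/db livers. In db/+ livers Fads1 was at 269 and 318 CPM on brazzein, 208 and 231 CPM on sucrose and 245 and 234 CPM on water. The lowest db/db library was above the highest db/+ library (log2 difference 0.72, SE 0.10, edgeR adjusted p = 0.00407). Fads2, the desaturase of the first step, had a lowest value of 348, a median of 442 and a highest of 893 CPM in db/db livers, and 370, 438 and 481 CPM in db/+ livers. Those groups overlapped (log2 difference 0.19, SE 0.19, edgeR adjusted p = 0.527), and without the highest library, db/db sucrose replicate 1, the difference was -0.0013. Fads3 was near 1 CPM in both groups, at 0.128 to 2.60 CPM in db/db and 0.0859 to 1.76 CPM in db/+ livers (edgeR adjusted p = 0.251).

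Elovl2 and Elovl1 differed in opposite directions. Elovl2, which lengthens the long polyunsaturated chains toward docosahexaenoate, was at 286 and 315 CPM on brazzein, 381 and 387 CPM on sucrose and 289 and 216 CPM on water in db/db livers. In db/+ livers Elovl2 was at 446 and 433 CPM on brazzein, 840 and 715 CPM on sucrose and 469 and 694 CPM on water. Every db/db library was below every db/+ library, a log2 difference of -0.92 (SE 0.12, edgeR adjusted p = 0.00356). Elovl1 was at 29.6, 33.3 and 36.1 CPM (lowest, median and highest) in db/db livers and 18.3, 23.2 and 27.6 CPM in db/+ livers, without overlap (log2 difference 0.53, SE 0.10, edgeR adjusted p = 0.0127). Elovl5 was at 601 to 722 CPM in db/db livers and 208 to 647 CPM in db/+ livers. The db/+ livers held 404 and 208 CPM of Elovl5 on brazzein, 647 and 627 CPM on sucrose and 417 and 589 CPM on water. The genotype difference of 0.54 (SE 0.17) missed the threshold (edgeR adjusted p = 0.0632). Leaving out db/+ brazzein replicate 1 gave 0.74 (adjusted p = 0.00874) and leaving out replicate 2 gave 0.43 (adjusted p = 0.0351), and DESeq2 also called Elovl5 (adjusted p = 0.0290), as it did 25.1% of all genes. Scaling by library totals, which put the median of all genes at 0.13, did so too (0.72, edgeR adjusted p = 0.0151).

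**Figure D3:**
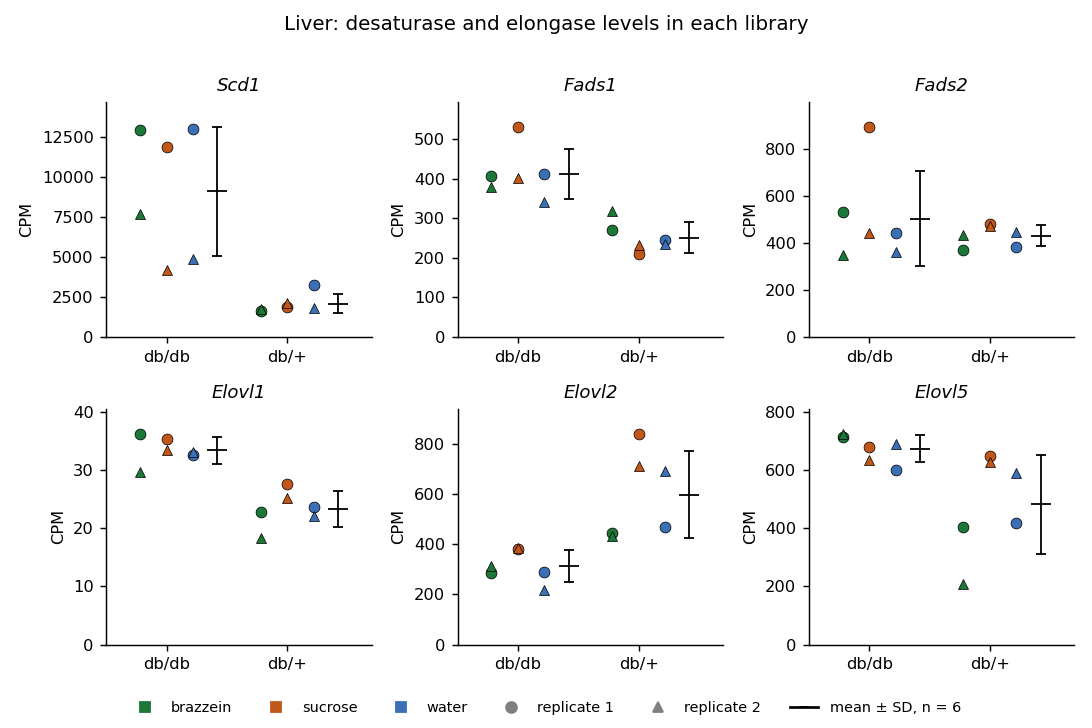
CPM (y axis, from 0) of 6 members in each of the 12 liver libraries, db/db left of db/+; colours mark the drink, circles and triangles the replicates, and bars the mean ± SD over 6 libraries. The db/db libraries lie above all db/+ libraries for Scd1, Fads1 and Elovl1 and below them for Elovl2, while Fads2 and Elovl5 overlap.

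Markers of other cell types also differed between these livers. The 6 adipocyte markers summed to 24.3 to 51.1 CPM in db/db livers and 6.96 to 15.01 CPM in db/+ livers, most of it Fabp4. Among these markers Fabp4 and Retn were called higher in db/db livers (edgeR adjusted p = 0.00517 and 0.00585). Only 2 of the 6 averaged at least 1 CPM in db/db livers and 1 in db/+ livers. Averaged over groups, Retn was lower in liver than in brain (log2 difference -3.38), where the 6 markers together summed to at most 1.01 CPM. The Retn call therefore rests on counts near 0. Cfd and Plin1 also had positive differences but were not called (edgeR adjusted p = 0.216 and 0.546). Adipoq and Lep, which define the cell type, did not pass the filter on low counts. Adipoq was at or below 0.132 CPM in db/db and 0.208 CPM in db/+ livers, and Lep was listed at 0 in 5 db/db and all 6 db/+ livers. The 6 macrophage markers summed to 109 to 209 CPM in db/db livers and 55.4 to 209 CPM in db/+ livers, with 3 of 6 called higher. Of the 10 hepatocyte markers 2 were called lower, Serpina3k and Ahsg, and 0 higher. The part of these differences in the desaturase and elongase results was not tested.

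Within a single drink, where each side had 2 libraries, fewer members passed. On brazzein 0 of 10 members were called between db/db and db/+ livers, against 1.58% of all genes, though 6 had an unadjusted p under 0.05 (17.5% of all genes) and DESeq2 called 4, against 10.1% of the genes to which it gave an adjusted p. On sucrose 1 member was called, against 0.868% of all genes, Fads1 (log2 difference 1.08, SE 0.17, edgeR adjusted p = 0.0367), and DESeq2 called 4 (8.22% of genes). On water 1 was called, against 1.51% of all genes, Elovl2 (log2 difference -1.20, SE 0.21, edgeR adjusted p = 0.0395), and DESeq2 called 7, and 2132 of all 19352 genes. Some DESeq2 calls were of genes near or at 0 in the db/+ livers of that drink. These were Scd2 on brazzein, Scd3 on sucrose, and Scd3, Scd4 and Fads3 on water. These edgeR backgrounds rested on few libraries, since leaving out 1 library put the number of all genes called between 131 and 389 on brazzein (305 with all libraries), 19 and 438 on sucrose (168) and 14 and 606 on water (293). Both edgeR calls were lost with a replicate block and on leaving out most single libraries, Fads1 in 10 of 12 cases and Elovl2 in 9 of 12. The log2 difference of Scd1 was 2.59 (SE 0.63) on brazzein, 1.999 (SE 0.61) on sucrose and 1.82 (SE 0.61) on water, with edgeR adjusted p-values between 0.0909 and 0.163. Scd1 was among the DESeq2 calls on each drink (DESeq2 adjusted p = 0.00156, 0.0260 and 0.0439 in the same order). Leaving out the higher db/db library of a drink, replicate 1 in each, gave 2.17 on brazzein, 1.06 on sucrose and 0.97 on water, and leaving out replicate 2 gave 2.92, 2.59 and 2.37 in the same order of drinks. For Elovl2 it was -0.55 (SE 0.21) on brazzein, -1.02 (SE 0.21) on sucrose and -1.20 (SE 0.21) on water. No member passed the test for an interaction of genotype with drink in liver, in which 0.0620% of all genes were called, by edgeR (2 at an unadjusted p under 0.05, Fads3 and Elovl5, against 7.29% of all genes) or by DESeq2 (1.97% of genes).

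No member was called between drinks within a genotype by edgeR, in either tissue. In db/db liver, 0.160% of all genes were called for brazzein against sucrose, 0.119% for brazzein against water and 0.00517% for sucrose against water, and in db/+ liver 0.0207%, 0.00517% and 0.0155%. In brain it was 0.00846% for brazzein against sucrose in db/db and 0 in the other 5 comparisons. At an unadjusted p under 0.05 there were, in the same order of drinks, 1, 0 and 1 members in db/db liver (14.7%, 8.57% and 4.27% of all genes) and 4, 3 and 1 in db/+ liver (8.75%, 6.06% and 5.98%). In brain there were 1, 0 and 2 in db/db (5.36%, 4.82% and 7.20%) and 0, 1 and 0 in db/+ (3.18%, 4.86% and 4.72%). The 4 were for brazzein against sucrose in db/+ livers. Among them Elovl2 was at 440 CPM on brazzein and 778 CPM on sucrose in db/+ livers on average (log2 difference -0.82, SE 0.21, edgeR adjusted p = 0.346) and Elovl5 at 306 CPM on brazzein and 637 CPM on sucrose (log2 difference -1.06, SE 0.29, edgeR adjusted p = 0.386). With db/+ brazzein replicate 1 left out, Elovl5 was called in that comparison (log2 difference -1.61, adjusted p = 0.0438), on the assumption that the lone remaining library varies like the other groups. In the same db/+ livers Fads1 ran the other way, at 293 CPM on brazzein and 220 CPM on sucrose (log2 difference 0.42, SE 0.17, edgeR adjusted p = 0.546). Where DESeq2 made a call between drinks, it was for Scd2 or Scd3 in liver, each with a group listed at 0, and for Fads2 between sucrose and water in db/db brain (0.845% of genes). In liver DESeq2 called 7.26% of genes for brazzein against sucrose and 3.35% for brazzein against water in db/db, and 2.52% and 1.02% in db/+. Fads2 in those brains was at 180 and 174 CPM on sucrose and 151 and 153 CPM on water (log2 difference 0.22, SE 0.05, edgeR adjusted p = 0.494).

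In brain no member passed the test between genotypes by edgeR (of 23653 genes, 0.00846% were called in all). An unadjusted p under 0.05 was reached by 4 members, against 13.8% of all genes. Scd2, the main brain desaturase, was at 1337 and 1317 CPM on brazzein, 1386 and 1365 CPM on sucrose and 1293 and 1254 CPM on water in db/db brains. In db/+ brains Scd2 was at 1474 and 1580 CPM on brazzein, 1458 and 1498 CPM on sucrose and 1410 and 1438 CPM on water. All db/db libraries were below all db/+ libraries, which held for 1.86% of genes in either direction, with a log2 difference of -0.16 (SE 0.02, edgeR adjusted p = 0.0694); DESeq2 called it (adjusted p = 0.000235), as it did 4.45% of genes. Elovl5 showed the same lack of overlap, at 63.2, 68.6 and 69.2 CPM (lowest, median and highest) in db/db brains and 69.6, 77.2 and 80.5 CPM in db/+ brains (log2 difference -0.17, SE 0.05, edgeR adjusted p = 0.194). The 8 oligodendrocyte markers, genes of the cells that make myelin, summed to 6906 to 8053 CPM in db/db brains and 7597 to 8701 CPM in db/+ brains, while the sums of 6 astrocyte markers were 2112 to 2261 CPM in db/db brains and 1863 to 2568 CPM in db/+ brains. Their part in the Scd2 and Elovl5 values was not tested.

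Of the remaining brain members, Fads1 was at 225 to 253 CPM in db/db and 251 to 274 CPM in db/+ brains (log2 difference -0.10, SE 0.03, edgeR adjusted p = 0.234) and Fads2 at 151 to 180 CPM in db/db and 164 to 180 CPM in db/+ brains (log2 difference -0.07, SE 0.03, edgeR adjusted p = 0.354). Scd1 was at 176 to 201 CPM in 5 of the 6 db/db brains and at 88.5 CPM in brazzein replicate 2, against 192 to 233 CPM in db/+ brains (log2 difference -0.33, SE 0.18, edgeR adjusted p = 0.455). Without that library the difference was -0.18 (edgeR adjusted p = 0.3998), and with the other db/db brazzein library left out in its place it was -0.57 and Scd1 was called (edgeR adjusted p = 0.0411). Brazzein replicate 2 also had the lowest oligodendrocyte marker sum of the 12 brains, and whether that bears on Scd1 was not tested. Elovl2, which fell in liver, was at 24.7 to 28.04 CPM in db/db brains and 21.6 to 26.2 CPM in db/+ brains (log2 difference 0.10, SE 0.06, edgeR adjusted p = 0.528). Elovl1, Fads3, Scd3 and Scd4 had adjusted p-values between 0.691 and 1.00, and their groups overlapped. Within a single drink, 0 members were called in brain by edgeR, against 0 of all genes on brazzein and on sucrose and 0.00846% on water; 3 members on brazzein (8.15% of all genes), 1 on sucrose (9.32%) and 3 on water (6.79%) had an unadjusted p under 0.05, and DESeq2 called Scd2 on brazzein (1.07% of genes). No member passed the interaction of genotype with drink in brain, where 0 genes were called in all; 1 member, Fads2, had an unadjusted p under 0.05 (5.45% of all genes), and DESeq2 called none of the 10 (0.820% of genes).

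**Figure D4:**
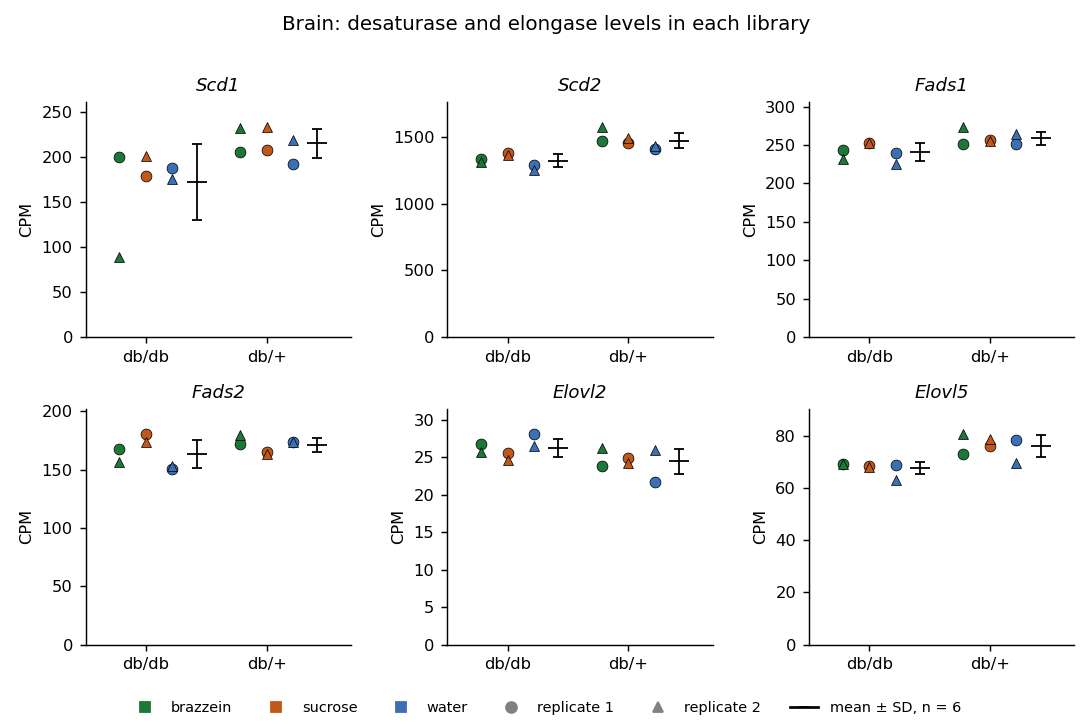
CPM (y axis, from 0) of 6 members in each of the 12 brain libraries, db/db left of db/+; colours mark the drink, circles and triangles the replicates, and bars the mean ± SD over 6 libraries. Scd2 and Elovl5 are lower in every db/db library without passing the adjusted test, and 1 db/db brazzein library holds 88.5 CPM of Scd1.

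The genotype difference itself was tested between the tissues. Among all genes 9.75% had a genotype difference that was unequal in liver and brain (edgeR interaction, adjusted p under 0.05), and 7 of the 10 members did. The difference was greater in liver than in brain for Scd1 (by 2.48 on the log2 scale, SE 0.41, adjusted p = 0.00170), Fads1 (0.83, SE 0.10), Elovl5 (0.72, SE 0.18) and Elovl1 (0.53, SE 0.12), and lower for Elovl2 (-1.01, SE 0.14, adjusted p = 0.00045). Scd2 and Scd4 were also called, but their liver levels were near or at 0 in db/+ mice, so no size is given. For Fads2 the difference between tissues was 0.27 (SE 0.20, edgeR adjusted p = 0.527).

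**Figure D5:**
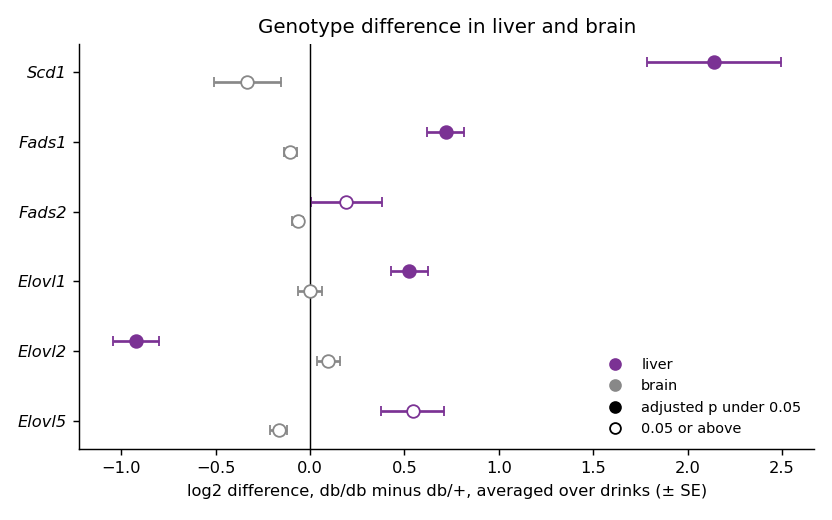
Log2 difference between db/db and db/+ averaged over drinks (x axis, bars are SE) for the 6 members with at least 16.4 CPM in every library of both tissues, liver in purple above brain in grey; filled points have an edgeR adjusted p under 0.05. In liver 3 members are higher and Elovl2 lower, and in brain all 6 points are open and lie between -0.33 and 0.10.

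Genotype also went with isoform use in liver, as FPKM shares that carry no test. Elovl2 held 17.4% to 28.6% of the Elovl FPKM in db/db livers and 42.3% to 56.6% in db/+ livers, with no overlap. Elovl5 held 65.6% to 76.5% in db/db livers and 37.7% to 52.9% in db/+ livers. Elovl1 held little of this sum in liver, so the Elovl5 share mostly mirrors that of Elovl2 and is not a second result. By CPM, Elovl5 overlapped between the genotypes. By FPKM Elovl5 was above Elovl2 in 6 of 6 db/db livers and in 5 of 6 db/+ livers. The Fads1 share was 35.3% to 49.8% in db/db livers and 28.3% to 40.5% in db/+ livers, and the groups overlapped. In brain the Elovl5 share ran between 57.4% and 59.0% for db/db libraries and between 59.3% and 62.6% for db/+ libraries, a narrow gap without overlap. Scd1 and Scd2 kept their order of use in all 12 libraries of each tissue.

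Genes that work beside the members were taken from lists by role, and their counts stand against the 15.2% of all genes called in this comparison, 7.91% as higher and 7.27% as lower. All 8 genes of de novo fatty acid synthesis rose in db/db livers relative to db/+ livers, with a median log2 difference of 1.39 beside -0.03 for all genes, among them Fasn, the fatty acid synthase (239 ± 50.6 CPM in db/db and 43.5 ± 9.33 CPM in db/+ livers, SD, n = 6 each; log2 difference 2.47, SE 0.16, edgeR adjusted p = 0.000304), and Thrsp (4.93, SE 0.34). Of the 12 cases in which 1 liver library was left out, the calls of Acaca, Acss2, Acacb and Slc25a1 were lost in 11, 9, 8 and 3. Of the 9 tested partners of the elongation cycle 4 rose and 1 fell. Hsd17b12, the ketoacyl reductase of that cycle, rose (0.77, SE 0.14, edgeR adjusted p = 0.0127), as did Elovl6, which lengthens palmitate to stearate, a substrate of Scd1 (2.64, SE 0.59), Elovl7 (2.75, SE 0.66) and Tecr, the last reductase of the cycle (0.41, SE 0.11), while Elovl3 fell by 2.63 (SE 0.59). The calls of Elovl6, Elovl7, Tecr and Elovl3 were lost in 6, 9, 9 and 7 of those 12 cases. Of 6 genes of cytochrome b5 and its reductases, a group that includes the carriers of electrons to desaturases, 2 rose. These were the reductase gene Cyb5r3 (0.81, SE 0.08, edgeR adjusted p = 0.00140) and the cytochrome gene Cyb5b (0.71, SE 0.15), the second of which was lost in 2 cases. Cyb5a, the other cytochrome gene of the list, was not called (-0.08, SE 0.08, edgeR adjusted p = 0.537).

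Against the same background of 15.2%, of 11 regulators 1 rose, Pparg (1.26, SE 0.28, edgeR adjusted p = 0.0225), a call lost in 6 of the 12 cases; Srebf1 was at 26.5 to 64.2 CPM in db/db livers and 6.12 to 38.9 CPM in db/+ livers (log2 difference 1.19, SE 0.37, edgeR adjusted p = 0.0666). Of 9 tested genes of acyl-CoA and phospholipid use, Agpat3 rose (0.82, SE 0.17, lost in 2 cases) and Acsl1 fell by 0.66 (SE 0.12). Of 7 genes of peroxisomal chain shortening, Acaa1a fell by 0.39 (SE 0.10, edgeR adjusted p = 0.0406), a call lost in 10 of the 12 cases in which a library was left out. None of 3 other desaturases passed (lowest adjusted p = 0.816, Degs1). In brain, 0 genes of these 7 lists were called by edgeR between genotypes.

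The genes whose log2 CPM followed a member most closely over the 12 libraries of a tissue were named by Pearson's r, among 11154 liver genes and 13978 brain genes with a mean of at least 1 CPM. These libraries share the genotype groups, so a gene that differs with genotype can rank high. For Scd1 in liver they included St3gal6 (r = 0.915), Fasn (0.908), Fbxo40 (0.907) and Cyp2a22 (0.906). For Elovl5 in liver they were Fam131c (0.955), S100a8 (0.941), Adam10 (0.938), Slc34a2 (0.933) and Atg10 (0.926), and for Fads2 in liver they included Vps13b (0.921), Dnajc13 (0.875), Poglut3 (0.826) and Fam102a (0.823). In brain, Scd2 was followed by Zfp442 (0.929), S1pr1 (0.924), Gfpt1 (0.923), Plekhh1 (0.920) and Mfap3l (0.919). Fads1 in brain was followed by Pdcl (0.921), Axl (0.915), Scd2 itself (0.894), Spg20 (0.885) and Il6st (0.882), and Elovl2 by Bspry (0.879), Gdf10 (0.861), Sp5 (0.851), Paqr5 (0.849) and Cybrd1 (0.848).

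A RefSeq table on GRCm38.p6 held no matched promoter for Scd1, Scd2 and Fads1, so these were not searched. Promoters of the other 7 members were taken from it, from 250 bases before to 50 bases after a start. They were searched on both strands for TCACNCCAC (a sterol regulatory element, in 1.24% of the 32851 promoters of the table), the E-box CACGTG (7.15%), CCAAT (37.4%), AGGTCA, an element bound by nuclear receptors (16.3%), and the GC box GGGCGG (35.7%). None of the 9 promoters of members held TCACNCCAC, and the 1 E-box lay in the promoter of Elovl5, with 2 matches to CCAAT. Of the Elovl1 promoters, the one printed held 1 match to CCAAT and 5 to GGGCGG, and the other 1 to AGGTCA and 2 to GGGCGG. The first Elovl2 promoter held GGGCGG alone, with 5 matches, and the second held none of the 5 motifs. A match is a description of letters and not a site in use. The promoters of the 3 elongases, of which Elovl1 rose and Elovl2 fell in liver, are given with matches other than GGGCGG in capitals, CCAAT reading ATTGG where it lies on the other strand, from coordinates of GRCm38.p6 and not of the build of the count files.
Elovl1 (chr4:118427843-118428142, plus strand): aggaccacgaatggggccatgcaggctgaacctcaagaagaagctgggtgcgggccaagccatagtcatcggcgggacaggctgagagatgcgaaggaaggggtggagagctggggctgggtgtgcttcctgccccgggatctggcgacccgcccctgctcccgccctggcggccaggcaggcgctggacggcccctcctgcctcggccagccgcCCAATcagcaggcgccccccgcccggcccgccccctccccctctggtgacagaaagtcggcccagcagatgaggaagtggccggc
Elovl2 (chr13:41220354-41220653, minus strand): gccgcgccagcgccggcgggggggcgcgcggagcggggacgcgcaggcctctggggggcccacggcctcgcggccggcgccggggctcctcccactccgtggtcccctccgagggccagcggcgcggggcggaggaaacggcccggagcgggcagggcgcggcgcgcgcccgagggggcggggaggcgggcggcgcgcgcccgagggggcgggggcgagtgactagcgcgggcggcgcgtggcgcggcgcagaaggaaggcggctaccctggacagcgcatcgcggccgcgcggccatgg
Elovl5 (chr9:77917115-77917414, plus strand): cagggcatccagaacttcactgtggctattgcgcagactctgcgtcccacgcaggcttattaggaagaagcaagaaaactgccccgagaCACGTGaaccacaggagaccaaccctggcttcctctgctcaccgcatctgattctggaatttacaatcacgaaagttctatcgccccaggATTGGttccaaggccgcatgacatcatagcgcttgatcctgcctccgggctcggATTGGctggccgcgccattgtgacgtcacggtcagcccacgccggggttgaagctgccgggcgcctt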

How the data were processed

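Poly(A) RNA from TRIzol extracts was made into libraries with the NEBNext Ultra II RNA kit, per the labels' protocols. The tool bcl2fastq and the build GRCm39 are named in the submitters' processing notes, while aligner and counter were not given in the sources used. The deposited files hold estimated counts per gene for each library, which were rounded to whole numbers. A deposited table of the series holds FPKM beside coverage signal, which equals FPKM times a factor of 6.09 to 8.37 per library. The count files of the 2 db/+ brazzein livers carry each other's column names, so their FPKM columns were used without a replicate number, and 2 coverage columns were not used.

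Counts were tested with edgeR 4.0.16 in R 4.3.3 (quasi-likelihood test, TMM scaling, genes kept by filterByExpr with a minimum count of 10, Benjamini-Hochberg adjustment over all genes tested: 19352 in liver, 23653 in brain, 25725 in both). Liver and brain were fitted separately, each with its 6 groups, and together for comparisons of tissues. CPM were computed from library sizes with TMM factors. DESeq2 1.42.0, RLE factors, library totals, no filter, a replicate block, summed Scd counts and leaving out each library were alternatives; library totals and summed Scd counts were chosen after seeing the data. The log2 CPM of same-numbered libraries deviated from group means with correlations of -0.105 to 0.0921 in liver and -0.0405 to 0.0404 in brain, so the numbers were not taken to pair libraries. On simulated counts for the liver genotype comparison (17369 genes), 8% of genes changed 2-fold and 47% of those changed 4-fold were recovered. For the brain genotype comparison (21670 genes) it was 60% and 87%. The simulations called 57 genes in liver and 153 in brain, where the real comparisons called 2937 and 2. The adjusted threshold shifts with that number, so these percents do not give the recovery of the real tests.

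Named genes were all members, Lepr, up to 4 genes of each list by smallest adjusted p, and the 5 genes most like 3 members a tissue by Pearson's r, of which some are not reported here. Tecr, Acaca, Acacb, Acss2, Slc25a1 and Cyb5a were named after their values were seen. The members and lists were chosen with earlier results of these data known. Sequences are from RefSeq on GRCm38.p6 (promoters) and from GENCODE M21 transcripts of GRCm38 (coding sequence), and no coordinates of the count files' build were used.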

Additional observations from a re-analysis of the deposited data

Results flagged for a closer look

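Of 37 sets of 6 libraries (a gene in a tissue and genotype, with a mean of at least 1 CPM), 5 had a library whose gap to the nearest other library passed Dixon's 95% critical value for its share of the whole range. The sets included Lepr beside the members, and each pooled the drinks. About 1 in 20 such sets would be picked out by chance if its values followed 1 normal distribution. Fads1 and Fads2 in db/db liver were both highest in sucrose replicate 1, at 531 and 893 CPM. Scd1 in db/+ liver was highest in water replicate 1, at 3281 CPM. In db/db brain, Scd1 was lowest in brazzein replicate 2, at 88.5 CPM, and Elovl5 was lowest in water replicate 2, at 63.2 CPM.

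The genotype difference was unequal in liver and brain for 5 members with levels well above 0, by the edgeR interaction test. Liver minus brain, it was 2.48 for Scd1, 0.83 for Fads1, 0.53 for Elovl1, 0.72 for Elovl5 and -1.01 for Elovl2 on the log2 scale.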

How the results depend on the processing

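The calls of Scd1, Fads1, Elovl1 and Elovl2 between db/db and db/+ livers held in each of the 12 fits that left out 1 library. Their log2 differences ranged from 1.83 to 2.34, 0.65 to 0.79, 0.49 to 0.60 and -1.01 to -0.80. Fads2 ranged from -0.0013 (without db/db sucrose replicate 1) to 0.34. Fads1 between db/+ liver and db/+ brain was -0.13 with library totals. That scaling also moved the median of all genes in the comparison from -0.61 to -1.65. Why that Fads2 library stood apart and which of these scalings is nearer the truth were not tested. With DESeq2, 8 members were called between genotypes in liver over drinks (5 with edgeR), 4 on brazzein (0), 4 on sucrose (1) and 7 on water (1), where DESeq2 called 4848, 1912, 1590 and 2132 of all genes. The 8 included Scd2, Scd3 and Scd4, which were near or at 0 in db/+ livers. The same limit holds for Scd2 on brazzein, Scd3 on sucrose, and Scd3, Scd4 and Fads3 on water. DESeq2 also called 1 member for brazzein against sucrose and 1 for brazzein against water in each liver genotype, and in brain 1 between genotypes over drinks, 1 on brazzein and 1 for sucrose against water in db/db. The liver count over drinks ran from 4 to 6 when a library was left out, that on brazzein 0 to 1, on sucrose 0 to 1 and on water 0 to 2, and without the low-count filter it was 0 on water. It was 0 to 1 for brazzein against sucrose in db/+ liver, for genotype in brain over drinks and for genotype in brain on brazzein, 8 to 9 for liver against brain in db/db and 6 to 8 for the tissue by genotype interaction. RLE factors and library totals moved none of the 26 counts of members by over 1.5 times. Over all genes edgeR called 2937 in liver over drinks, and DESeq2 called 869 in brain (2 with edgeR) and 4520 in the interaction (2509), and without db/db sucrose replicate 2 edgeR called 1407 in liver. In brain edgeR called 1 to 42 when a library was left out. Isoform shares from counts per implied length stayed within 1 SD of those from FPKM. Those lengths came from counts over coverage in these same libraries, and coverage is FPKM times a factor. The agreement was therefore built in and is no separate check of the shares.

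The replicate numbers were not taken to pair the libraries within a tissue. Whether same-numbered liver and brain libraries came from the same mouse was not tested, and comparisons of tissues treated them as separate. With a replicate block, Scd1 differed by 2.02 in liver (adjusted p = 0.00722, edgeR), and 0 members were called on sucrose and 0 on water. In brain the block left 0 genes called.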
